A study of Mus musculus with 13 samples.

Results

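The FAM3 family comprises 4 mouse genes, Fam3a, Fam3b, Fam3c and Fam3d, and its expression was examined in 13 aortas of ApoE-/- mice among the 54532 genes of the count table. The members were found by gene name. Of the 4 members, 3 are listed under their FAM3 symbol, and Fam3d is listed under its older symbol Oit1 (ENSMUSG00000021749), for which RefSeq gives Fam3d as a synonym. The mice lack apolipoprotein E in both groups, were 10 weeks old at the start of the infusion, and received angiotensin II (AngII, the peptide hormone that raises blood pressure and induces abdominal aortic aneurysm in this strain) by pump at 1000 ng/kg/min for up to 28 days. In addition, each animal received 5 tail vein injections of adenovirus, starting before the pump was placed. In the Ad-FAM3A group (n = 7) the virus carried the coding sequence of mouse Fam3a with a FLAG tag, an internal ribosome entry site and the fluorescent protein mCherry, under the EF1A promoter, which is active in most cell types. In the Ad-sham group (n = 6) it was the same vector without Fam3a. The methods also name a CMV vector for the construction, so the promoter is not certain. Each aorta gave 1 library.

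FAM3 proteins were predicted to be secreted cytokines with a helical bundle, and the folds solved since then are compact globular domains of another kind, with a GG domain that is also found in the glycosyltransferase POMGNT1 and the hyaluronidase CEMIP. FAM3A is found at the cell surface and in mitochondria and has been linked to ATP release and Akt signaling. FAM3B, also called PANDER, is released by pancreatic islets, FAM3C, also called ILEI, drives epithelial cells toward a mesenchymal state through the receptor LIFR, and FAM3D is released by the gut and binds formyl peptide receptors.

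The members lie on 4 different chromosomes, all on the minus strand of GRCm38. Fam3a (ENSMUSG00000031399) spans chrX:74384719-74393272, Fam3b (ENSMUSG00000022938) chr16:97470965-97514816, Fam3c (ENSMUSG00000029672) chr6:22306520-22356243 and Oit1 chr14:8348937-8378754. GENCODE M21 gave the same start and end for all 4. Stretches of 240 coding bases of Fam3a and Fam3c, the only members with counts in all 13 aortas, are shown because Fam3a is the gene that the virus label concerns and because reads of similar genes can be misassigned. They come from GENCODE M21 principal transcripts on GRCm38, are exonic, and are written 5′ to 3′ as bases 160 to 399 (Fam3a) and 157 to 396 (Fam3c), counted from 1 at the start codon. Capitals mark the longest run of bases that the 2 coding sequences have in common, which begins at base 250 in Fam3a and at base 247 in Fam3c.
Fam3a: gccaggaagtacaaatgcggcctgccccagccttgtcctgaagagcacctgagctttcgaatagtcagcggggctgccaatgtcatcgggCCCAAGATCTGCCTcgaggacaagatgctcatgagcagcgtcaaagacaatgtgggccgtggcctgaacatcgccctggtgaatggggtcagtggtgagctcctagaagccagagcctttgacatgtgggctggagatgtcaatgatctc
Fam3c: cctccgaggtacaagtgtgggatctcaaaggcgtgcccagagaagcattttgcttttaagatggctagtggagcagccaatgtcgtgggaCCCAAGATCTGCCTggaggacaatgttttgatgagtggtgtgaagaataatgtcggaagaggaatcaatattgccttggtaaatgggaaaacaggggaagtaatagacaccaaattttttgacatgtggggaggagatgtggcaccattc
The whole Fam3a coding sequence has 693 bases and encodes 230 residues, whereas that of Fam3c has 684 bases and encodes 227 residues. Aligned end to end, 62.3% of the aligned positions were identical. Identity between the other pairs ran from 52.9% (Fam3b with Fam3c) to 61.7% (Fam3a with Oit1). No pair of members shared a run of more than 14 identical bases, which is far shorter than a sequenced read. The Fam3a coding sequence delivered by the virus and the transcript of the chromosomal gene cannot be told apart in a count per gene.

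Total counts ran from 14481179 to 19797407 per aorta. Expression is given in CPM, counts divided by the library total after TMM scaling and brought to a common size. Where a gene had a count of 0, its level could still reach 3 counts, or 0.140 to 0.220 CPM depending on the aorta, a limit that covers counting error only. The contractile smooth muscle markers, all 8 of which were tested, were present in every aorta, and their score, the mean log2 CPM of the list, ran from 7.54 to 9.66 in Ad-sham and from 7.12 to 10.18 in Ad-FAM3A. The score of the B-cell list was 6.70 in the aorta Ad-FAM3A6 and 5.44 in Ad-FAM3A7, and 2.73 or less in the others. All 13 aortas had at least 1262 counts of the Y-linked gene Ddx3y and at most 6 of Xist, the transcript of the inactive X chromosome, so the X-linked Fam3a was not compared between sexes. Nothing says how many cages or batches the animals came from, and p-values measure the spread between these aortas.

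Fam3a, the gene carried by the virus, had nearly the same mean expression under both virus labels. In Ad-sham1 to Ad-sham6 its expression was 21.9, 30.3, 25.9, 23.8, 26.6 and 17.9 CPM. In Ad-FAM3A1 to Ad-FAM3A7 it was 27.1, 29.7, 21.6, 28.8, 23.0, 18.6 and 18.5 CPM. Both groups covered almost the same range, the highest and the lowest aorta of all were both Ad-sham, and 0 of 7 aortas labelled Ad-FAM3A exceeded the highest Ad-sham aorta. The means were 24.4 ± 4.27 CPM in Ad-sham (SD, n = 6) and 23.9 ± 4.67 CPM in Ad-FAM3A (SD, n = 7). On the log2 scale the change was -0.03 ± 0.16 (standard error), with an adjusted p of 0.971 from edgeR's quasi-likelihood test (Benjamini-Hochberg, 15811 genes). The 95% interval of the fold change ran from 0.773 to 1.24. A two-sided exact permutation test over all 1716 splits of the aortas gave p = 0.825. The sign of this value changed when Ad-sham2, Ad-FAM3A3, Ad-FAM3A6 or Ad-FAM3A7 was left out, with values from -0.10 to 0.04 over the 13 omissions. Because the RNA of the gene carried by the virus does not separate the groups, they are named here by their labels alone. The authors reported FLAG-tagged FAM3A protein in several cell types of the aneurysm, which a count of RNA does not measure.

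Fam3c was the member with the highest expression, and its mean was higher in Ad-FAM3A, by a difference that did not pass the test. Its expression in Ad-sham1 to Ad-sham6 was 45.2, 70.9, 37.7, 87.1, 63.3 and 87.8 CPM. In Ad-FAM3A1 to Ad-FAM3A7 it was 87.6, 127, 80.1, 119, 85.4, 53.7 and 60.3 CPM. Ad-FAM3A2 and Ad-FAM3A4 lay above all Ad-sham aortas, Ad-sham1 and Ad-sham3 lay below all aortas labelled Ad-FAM3A, and the other 9 overlapped. The means were 65.3 ± 20.9 CPM in Ad-sham (SD, n = 6) and 87.6 ± 27.5 CPM in Ad-FAM3A (SD, n = 7), and 5 of 7 aortas labelled Ad-FAM3A exceeded the Ad-sham median. On the log2 scale the change was 0.42 ± 0.24 (standard error), with an unadjusted p of 0.104 and an adjusted p of 0.811 from edgeR's quasi-likelihood test (Benjamini-Hochberg). The 95% interval of the fold change ran from 0.934 to 1.93, and the two-sided exact permutation test gave p = 0.136. Without Ad-FAM3A6 and Ad-FAM3A7 the log2 fold change was 0.62 (adjusted p = 0.776 by edgeR's quasi-likelihood test). This omission was chosen after seeing the data. It removes the lowest Fam3c values of the Ad-FAM3A group, so a higher fold change had to follow.

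**Figure D1:**
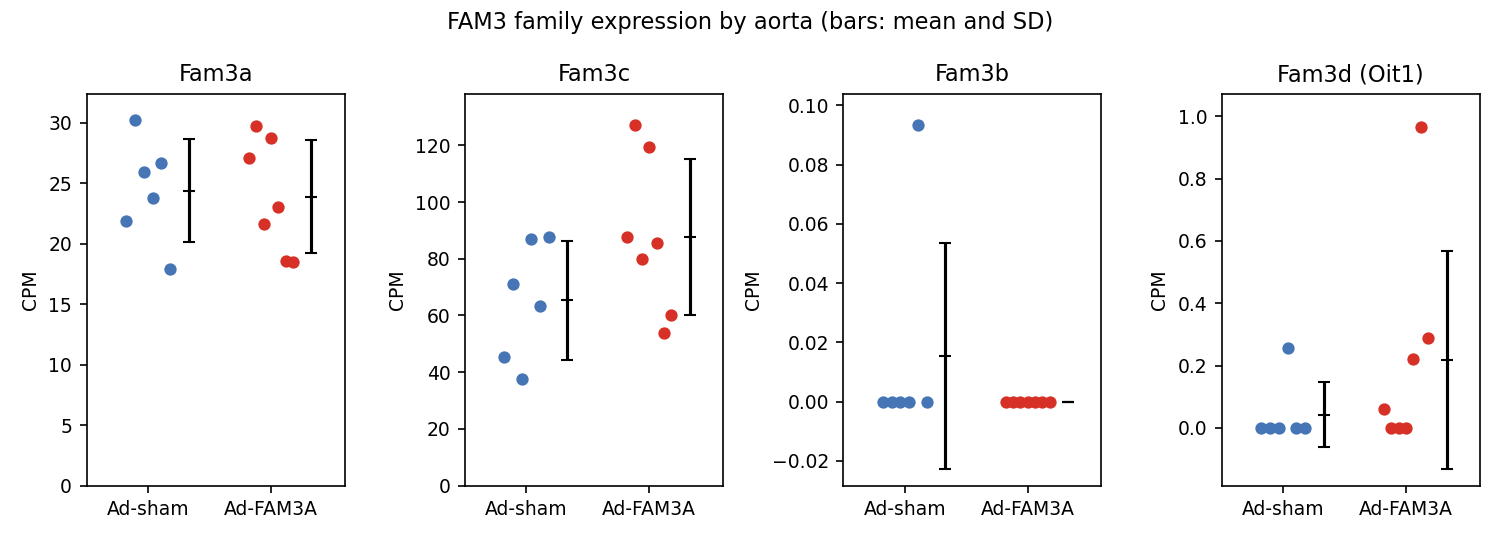
Expression of the 4 FAM3 members in CPM (vertical axes, which differ between panels) in each of 6 Ad-sham (blue) and 7 Ad-FAM3A (red) aortas, with the mean and SD in black beside the points; for Fam3b and Fam3d (Oit1) the SD bar reaches below 0, which no count can. Fam3a overlaps between the groups, Fam3c has 2 aortas labelled Ad-FAM3A above all Ad-sham aortas, and Fam3b and Fam3d are at 0 in most aortas.

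Neither member that could be tested was called. Of the 4 members, Fam3a and Fam3c passed edgeR's filter on low counts. By the quasi-likelihood test, 0 of these 2 had an adjusted p under 0.05, as had 0 of all 15811 genes (0%). Without adjustment, 0 of the 2 had a p under 0.05, against 934 of all genes (5.91%, of which 2.98% were higher and 2.93% lower in Ad-FAM3A). Limma-voom called 0 genes. DESeq2 called 10 genes, and no member was among them. In fits across all genes, the unadjusted p of Fam3c was 0.0935 from DESeq2 and 0.101 from limma-voom.

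Fam3d (Oit1) was at the edge of detection. It had 4 counts in Ad-sham4, 1 in Ad-FAM3A1, 3 in Ad-FAM3A5, 16 in Ad-FAM3A6, 5 in Ad-FAM3A7 and 0 in the other 8 aortas. Ad-FAM3A6 thus held 16 of the 29 counts, and its 0.967 CPM stood above the next highest value, 0.289 CPM in Ad-FAM3A7. The means were 0.0427 ± 0.105 CPM in Ad-sham (SD, n = 6) and 0.219 ± 0.350 CPM in Ad-FAM3A (SD, n = 7), with p = 0.228 by the two-sided exact permutation test on CPM. The difference of the means, 0.177 CPM, was 0.0521 CPM without Ad-FAM3A6. Counts were present in 4 of 7 aortas labelled Ad-FAM3A and in 1 of 6 Ad-sham aortas. The 3 aortas with 4 or more counts were the ones with the highest score of the T-cell list (8 of 8 genes tested), at 5.67 (Ad-FAM3A6), 3.82 (Ad-sham4) and 3.16 (Ad-FAM3A7). Ad-FAM3A5, with 3 counts, had the lowest T-cell score of all 13 aortas, 0.31. The T-cell list was 1 of 15 lists scored. On the B-cell list Ad-FAM3A6 and Ad-FAM3A7 were highest, at 6.70 and 5.44, and Ad-sham4 had 1.64. On the macrophage list Ad-sham4 was highest, at 7.23. The T-cell score ran from 0.61 to 3.82 in Ad-sham and from 0.31 to 5.67 in Ad-FAM3A, and its part in the Fam3d counts was not tested. The antisense gene 2610318M16Rik, which overlaps Oit1 on the plus strand, had 1 count in all aortas together.

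Fam3b, the pancreatic islet member, was not detected beyond the counting limit. It had 2 counts in Ad-sham5, equal to 0.0933 CPM, and 0 counts in the other 12 aortas. The 2 counts lie under the 3 counts that a value of 0 allows, so no fold change is given here. Of the pancreas list, 1 gene was tested, and the list was not scored.

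Levels of different members were compared per kilobase of gene length. Fam3c had 20.8 ± 7.09 CPM per kb, Fam3a 9.71 ± 1.73, Fam3d (Oit1) 0.0879 and Fam3b 0.00396 (means over 13 aortas, with the SD for the members detected throughout). Fam3c was above Fam3a in 12 of 13 aortas, by 1.04 ± 0.49 on the log2 scale (SD, n = 13), or 2.06-fold, with p = 0.000488 by a two-sided exact sign-flip permutation test. The exception was Ad-sham3, where the log2 ratio was -0.04, and the highest ratio was 1.72 in Ad-sham6. The sign-flip p measures the spread between aortas only. Each gene was given 1 deposited length, and an error in that length would shift the ratio by the same amount in every aorta. The log2 ratio was 0.79 ± 0.62 in Ad-sham (n = 6) and 1.26 ± 0.21 in Ad-FAM3A (n = 7), a difference of 0.46 that did not pass the two-sided exact permutation test (p = 0.0851). Fam3a had at least 279 counts in every aorta and Fam3d at most 16. Fam3d and Fam3b had 29 and 2 counts in all, and the order between them was not tested.

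Among all genes with a count in an aorta, ranked by CPM per kb, Fam3c held a median rank of 2045, from 1463 to 4277. Fam3a held a median rank of 4611, from 3829 to 5628. Among the 15811 genes tested this placed Fam3c at a median percentile of 87.1 and Fam3a at 70.9. Fam3d ranked from 15041 to 21080 in the 5 aortas where it had a count, and Fam3b ranked 21244 in its single aorta. The 2 expressed members also differed in how evenly they were expressed. The SD of log2 CPM within groups was 0.27 for Fam3a and 0.48 for Fam3c, and the highest aorta exceeded the lowest by 1.69-fold for Fam3a and 3.37-fold for Fam3c. Of 2668 genes with a mean log2 CPM within 0.5 of that of Fam3a, 28.9% had a smaller SD, whereas 77.5% of the 2079 genes near Fam3c did.

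**Figure D2:**
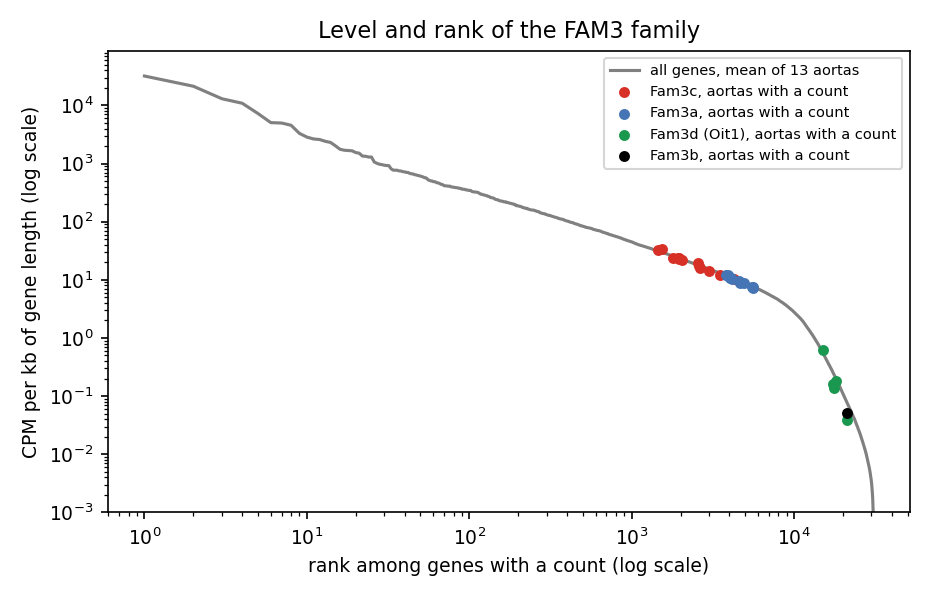
Level in CPM per kb of gene length (vertical, log scale) against rank among genes with a count (horizontal, log scale), with 1 point for each aorta that had a count of the member, and the grey line showing the mean level of all genes over 13 aortas. Fam3c (red) lies at ranks 1463 to 4277, Fam3a (blue) at 3829 to 5628, and Fam3d (green) and Fam3b (black) lie far lower.

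The RefSeq windows around the start sites (250 bases before to 50 after, GRCm38.p6) differed as well. That of Fam3c had a GC content of 75.0% and an observed to expected ratio of CpG of 1.08, higher than in 97.6% of all such windows. The pair of Fam3a windows had ratios of 0.349 and 0.371, near the middle of all windows, and the Oit1 window had 0.133.

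The aortas differed in tissue content, and of all lists the contractile smooth muscle list (Acta2, Myh11, Tagln, Cnn1, Myl9, Mylk, Lmod1 and Smtn) had the highest r with each expressed member, although only Fam3c centred within the groups passed the adjustment. For Fam3c and the smooth muscle score, Pearson's r was 0.75 over 13 aortas (permutation p = 0.0030, adjusted p = 0.0882 over 29 relations) and Spearman's rho was 0.70 (permutation p = 0.0087, adjusted p = 0.126). Without Ad-sham1 and Ad-FAM3A6, the aortas farthest from the median score, r was 0.72. For Fam3a, r was 0.69 (permutation p = 0.0093, adjusted p = 0.135) and rho was 0.71 (adjusted permutation p = 0.126), and without the same aortas r was 0.67. Neither relation passed the adjustment over the pooled aortas. Centred within the virus groups, r was 0.78 for Fam3c (permutation p = 0.0012, adjusted p = 0.0360) and 0.70 for Fam3a (adjusted permutation p = 0.0960), so that 1 of 29 relations passed in that form. These permutations shuffled the centred values over all 13 aortas and not within the groups. They take no account of the centring, so the p is too small and the pass is not firm. Within the groups, r for Fam3c was 0.66 in Ad-sham and 0.88 in Ad-FAM3A. For Fam3a these values were 0.49 and 0.83. In whole tissue, fewer cells of a type and less RNA per cell cannot be told apart.

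**Figure D3:**
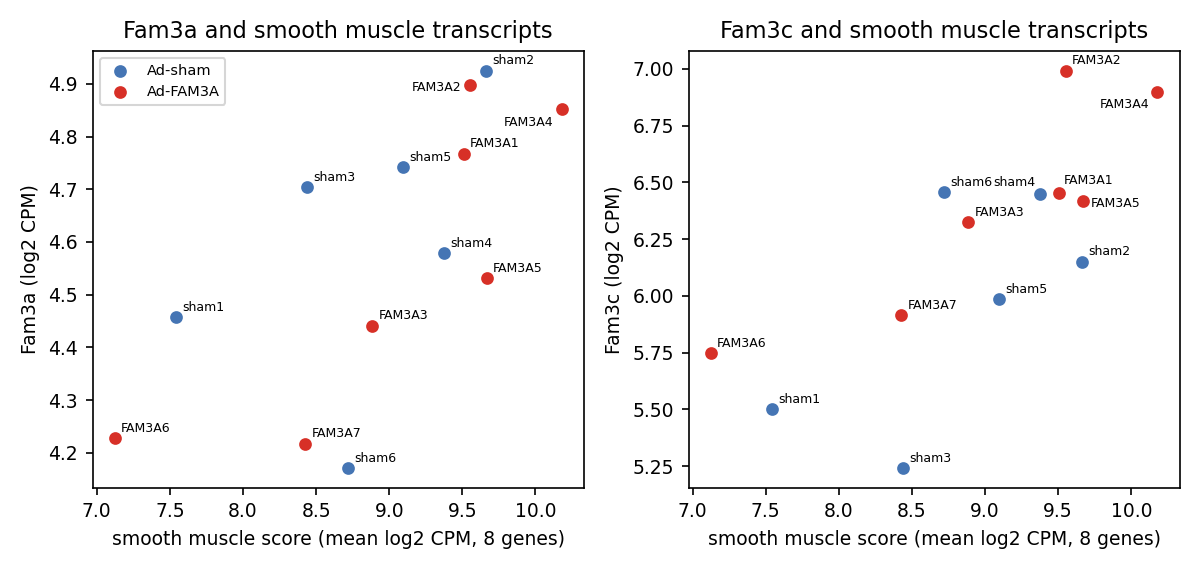
Log2 CPM of Fam3a (left) and Fam3c (right) against the smooth muscle score, the mean log2 CPM of 8 contractile genes, in 13 aortas (blue, Ad-sham; red, Ad-FAM3A). Over the 13 aortas r was 0.69 for Fam3a and 0.75 for Fam3c, with adjusted permutation p = 0.135 and 0.0882, and Ad-FAM3A6, with the lowest score, was among the lower aortas for both.

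The single markers had similar values, but they make up the score and are not a separate test. Across the 8 genes, r with Fam3c ran from 0.66 to 0.85 with a median of 0.71, the highest being Tagln, which encodes the actin-binding protein transgelin. With Fam3a it ran from 0.51 to 0.83 with a median of 0.66, the highest being Myl9, a myosin regulatory light chain. Tagln had the lowest level of the 8 genes, with means of 18.6 CPM in Ad-sham and 32.2 CPM in Ad-FAM3A. The next lowest, Lmod1, had 269 and 318 CPM. The reason for the low Tagln level was not tested. The smooth muscle score itself did not separate the groups (means 8.80 in Ad-sham and 9.05 in Ad-FAM3A, two-sided exact permutation p = 0.627). With the score as a covariate, the log2 fold change of Fam3c was 0.31 (standard error 0.17, adjusted p = 0.699 by edgeR's quasi-likelihood test), and that of Fam3a was -0.09 (standard error 0.13, adjusted p = 0.861).

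Of the other tissue lists, none reached an adjusted p under 0.05 with either member, pooled or centred within groups. The most negative r of Fam3c was with the cardiac muscle list, at -0.59 (permutation p = 0.0357, adjusted p = 0.345), but rho was -0.23 and r without the farthest 2 aortas was -0.35. Endothelial genes had an r of 0.33 with Fam3c (rho 0.51), which was 0.56 when centred within groups (adjusted permutation p = 0.321). With Fam3a their r of -0.02 combined -0.78 in Ad-sham and 0.60 in Ad-FAM3A, a difference that was not tested. Liver genes had an r of 0.48 with Fam3a and of 0.47 with Fam3c (rho 0.65, adjusted permutation p = 0.176), and within the groups the values were -0.26 and 0.02 in Ad-sham and 0.87 and 0.75 in Ad-FAM3A, a difference that was not tested. White adipocyte genes had an r of 0.49 with Fam3a (adjusted permutation p = 0.347) and of -0.35 with Fam3c (adjusted permutation p = 0.520). With Fam3c, r was -0.54 for Schwann cell genes and -0.50 for sympathetic neuron genes (adjusted permutation p = 0.347 for each). Fibroblast genes had an r of 0.21 with Fam3c and of -0.03 with Fam3a. For the T-cell list the values were -0.13 for Fam3c and -0.52 for Fam3a (adjusted permutation p = 0.347). The Fam3c value combined 0.61 in Ad-sham and -0.73 in Ad-FAM3A, again with no test of the difference, and the Fam3a value combined -0.29 and -0.63. The B-cell list fell into separate clusters, with Ad-FAM3A6 and Ad-FAM3A7 apart from the rest, and no r was computed for it.

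**Figure D4:**
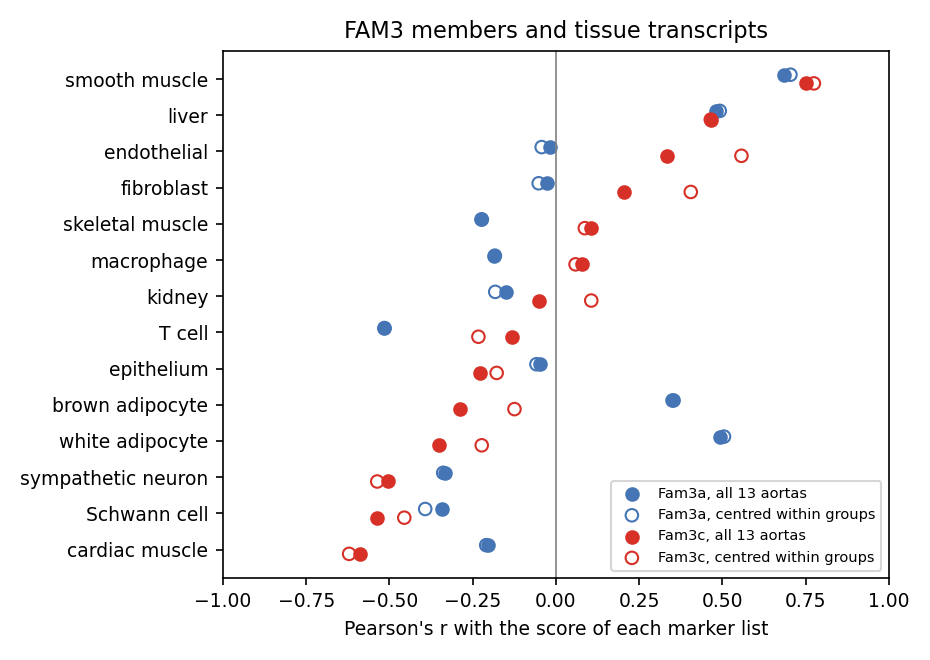
Pearson's r (horizontal) of Fam3a (blue) and Fam3c (red) with the score of each of 14 tissue or cell type lists (vertical), over 13 aortas (filled) and after centring within the virus groups (open). The smooth muscle list has the highest r for both members, and the filled and open points of that list nearly coincide.

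The relation between Fam3a and Fam3c themselves did not pass the adjustment. Over all 13 aortas their r was 0.33 (permutation p = 0.269, adjusted p = 0.520) and rho was 0.32. In Ad-FAM3A (n = 7), r was 0.95 and rho was 0.96, and r was 0.89 without Ad-FAM3A2 and Ad-FAM3A4. In Ad-sham (n = 6), r was -0.26 and rho was -0.31. These values within groups are a description with no p, since they were singled out after they were seen, and the difference between the groups was not tested. Of the aortas labelled Ad-FAM3A, Ad-FAM3A2 and Ad-FAM3A4 were highest for both genes, and Ad-FAM3A6 and Ad-FAM3A7 lowest for both. The latter pair also had the lowest smooth muscle scores of that group, at 7.12 and 8.43, and the highest B-cell and T-cell scores. Their liver scores, 0.0543 and 0.0335, were the lowest of all 13 aortas. The part of any of these in the relation was not tested.

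The genes whose expression was most like that of each member were sought among 10018 genes with a mean of at least 10 CPM. For Fam3a they were Sil1 (an exchange factor of the endoplasmic reticulum chaperone BiP), Jmjd8 (a protein of the endoplasmic reticulum), Anxa6 (a calcium-dependent membrane-binding annexin), Mrfap1 and Tmed9 (a cargo protein of early secretory vesicles), with r from 0.94 to 0.96 over 13 aortas. For Fam3c they were Arl6ip5 (a membrane protein of the endoplasmic reticulum), Elovl1 (a fatty acid elongase), Rsu1 (a component of integrin adhesions), Hmgn3 (a nucleosome-binding protein) and Ctsh (a lysosomal protease), with r from 0.91 to 0.94. The median r over all these genes was 0.085 for Fam3a and 0.046 for Fam3c. Fam3c ranked 3359 of the 10018 genes by its r with Fam3a.

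The receptors, processing enzymes and regulators linked to FAM3 proteins nearly all passed the filter on low counts, and none was called. Of 25 such genes, 24 were tested, 16 with a higher and 8 with a lower mean in Ad-FAM3A, and 0 passed an adjusted p under 0.05. Of all 15811 genes tested, 7973 were higher and 7838 lower. Their median log2 fold change was 0.06, beside 0.00 for all genes, and the smallest adjusted p was 0.810 by edgeR's quasi-likelihood test. By that test 1 of 24, Plaur, had an unadjusted p under 0.05, beside 5.91% of all genes. By the two-sided exact permutation test, also unadjusted, 3 of 24 did (Fpr1, Fgfr4 and Plaur), beside 4.67% of all genes. In 4 of 24 (these 3 and Pparg), all or none of the aortas labelled Ad-FAM3A exceeded the Ad-sham median, beside 7.58% of all genes.

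Among receptors, Lifr, through which FAM3C acts, had 92.6 ± 16.6 CPM in Ad-sham and 108 ± 28.4 CPM in Ad-FAM3A, and its log2 fold change was 0.23 (standard error 0.19). Its signaling partner Il6st had 466.3 ± 124 and 434 ± 75.6 CPM. The formyl peptide receptors bound by FAM3D were low, with Fpr1 at 0.972 ± 0.368 and 0.520 ± 0.349 CPM and Fpr2 at 0.775 ± 0.445 and 1.15 ± 0.450 CPM. Fpr1 had the lowest log2 fold change of the list, -0.88 (standard error 0.47, adjusted p = 0.810 by edgeR's quasi-likelihood test), with 0 of 7 aortas labelled Ad-FAM3A above the Ad-sham median and an exact permutation p of 0.0478, unadjusted. Of the fibroblast growth factor receptors, which FAM3B has been reported to bind, Fgfr1 was the highest per kilobase, at 23.9 ± 6.10 CPM per kb. Fgfr4 was low (0.442 ± 0.268 and 0.811 ± 0.252 CPM) and had the highest log2 fold change of the list, 0.87 (standard error 0.42, adjusted p = 0.810 by edgeR's quasi-likelihood test), with 7 of 7 aortas above the Ad-sham median and an exact permutation p of 0.0291, unadjusted.

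Of the urokinase system, which processes FAM3C, the receptor Plaur was measured at 9.30 ± 2.40 CPM in Ad-sham and 12.5 ± 2.36 CPM in Ad-FAM3A, where 7 of 7 aortas exceeded the Ad-sham median, although the ranges overlapped. The log2 fold change of Plaur was 0.42 (standard error 0.20, unadjusted p = 0.0485, adjusted p = 0.810 by edgeR's quasi-likelihood test), and the exact permutation p was 0.0326. The protease Plau had 27.5 ± 10.03 and 28.1 ± 7.33 CPM, and Plg, the plasmin precursor made in liver, had counts in 8 aortas and was not tested. Pcbp1, which binds the Fam3c transcript and holds back its translation, had 152 ± 27.5 and 140 ± 28.2 CPM. Pparg, a transcription factor that regulates Fam3a, had 129 ± 68.5 and 90.8 ± 17.9 CPM, and 0 of 7 aortas labelled Ad-FAM3A exceeded the Ad-sham median. The log2 fold change of Pparg was -0.50 (standard error 0.29, adjusted p = 0.811 by edgeR's quasi-likelihood test), and the exact permutation p was 0.303. Pparg is also the main regulator of fat cells. The mean score of the white adipocyte list (8 of 8 genes tested) was 8.27 in Ad-sham and 7.77 in Ad-FAM3A, with ranges of 7.41 to 9.16 and 6.93 to 8.78. That of the brown adipocyte list (8 of 8 tested) was 6.57 and 5.93, with ranges of 5.08 to 7.62 and 5.33 to 6.62, and the part of either in the Pparg value was not tested. Of the genes placed downstream of FAM3A, Akt1 had a log2 fold change of 0.06, Akt2 of -0.34, Foxo1 of 0.17 and Hsf1 of 0.07. The ATP channel Panx1 had -0.03, and the purinergic receptors ran from -0.17 (P2ry1) to 0.17 (P2rx7).

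**Figure D5:**
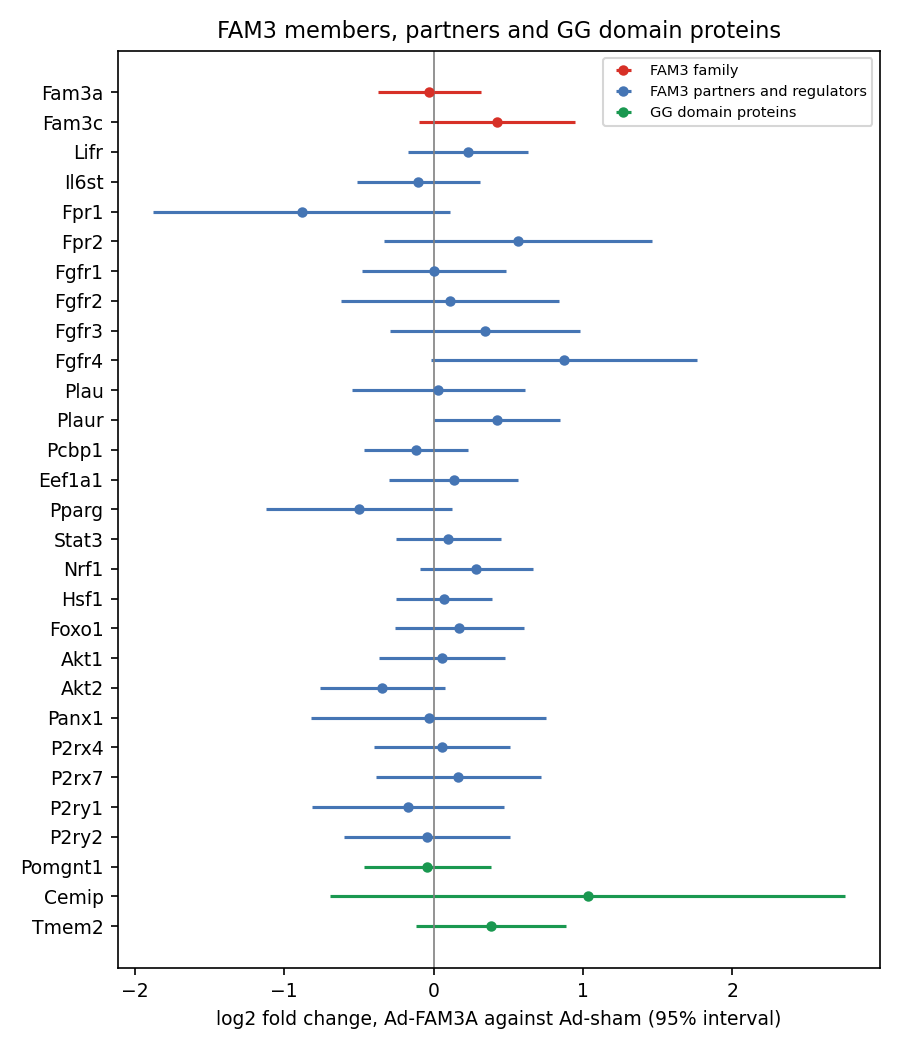
Log2 fold change of Ad-FAM3A against Ad-sham (horizontal, points with 95% intervals) for the 2 tested FAM3 members (red), 24 tested partners and regulators (blue) and 3 GG domain proteins (green). All intervals but that of Plaur include 0, and the Cemip interval is the widest.

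The proteins that share the GG domain were measured by 3 genes, of which 0 were called. Pomgnt1 had 65.8 ± 14.5 CPM in Ad-sham and 63.8 ± 18.8 CPM in Ad-FAM3A. Cemip had 4.71 ± 4.59 and 9.63 ± 9.76 CPM, with a log2 fold change of 1.03 (standard error 0.80). Tmem2, the symbol listed for Cemip2, had 37.4 ± 12.8 and 48.8 ± 14.3 CPM, with a log2 fold change of 0.39 (standard error 0.23).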

How the data were processed

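RNA of 13 aortas was sequenced, 6 Ad-sham and 7 Ad-FAM3A. Per the labels and methods, the authors aligned reads to GRCm38 with Hisat2 2.0.5, counted them per Ensembl gene with FeatureCounts 1.5.0-p3, and deposited whole-number counts without normalization. The authors also deposited mean FPKM per group, read here for the members but not printed. The strand setting, annotation release and treatment of multiply mapped reads are not given in the sources used here, and labels and methods name different extraction and library kits. The authors' table was mapped to samples by title. No pair of aortas was found to be 1 library deposited in duplicate.

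Counts were normalized by TMM, filtered by filterByExpr (15811 genes kept of 30782 with a count) and compared by the quasi-likelihood test of edgeR 4.0.16 (R 4.3.3, limma 3.58.1, DESeq2 1.42.0) with Benjamini-Hochberg adjustment. The script was tested on simulated data. Correlations used log2 CPM (prior count 2) and 100000 permutations. A list whose largest gap between aortas exceeded 40% of its range was taken as clustered. Alternatives were other normalizations, filters, tests, covariates, the replicate block and leaving out each aorta.

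Named genes were the members, genes overlapping them, the 5 genes most like each tested member, and lists of partners, GG domain proteins and markers. The members and lists were chosen with earlier results of these data known. The gene next to Fam3a, Ikbkg, was added after its values were seen. The result of 1 gene of the partner list is not reported here, and its list was counted without it.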

Additional observations from a re-analysis of the deposited data

Results flagged for a closer look

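Of 10 groups of values examined, 3 had 1 aorta far from the rest by Dixon's criterion, where chance gives about 0.5 for values that vary smoothly. All 3 concern members near the counting limit, and in 2 of them every other aorta was at 0, so that any single nonzero count meets the criterion and the chance figure does not apply. Fam3d (Oit1) was 0.256 CPM in Ad-sham4, with 0 in the other 5 Ad-sham aortas. Fam3d was 0.967 CPM in Ad-FAM3A6, with 0 to 0.289 CPM in the other 6 aortas of its group. Fam3b was 0.0933 CPM in Ad-sham5, with 0 in the other 5 Ad-sham aortas. These values rest on 4, 16 and 2 counts.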

How the results depend on the processing

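Fam3a had no stable sign. Its log2 fold change was 0.0351 with the replicate block, 0.0453 with the brown adipocyte score as a covariate, 0.0910 without Ad-FAM3A6 and Ad-FAM3A7 (an omission chosen after seeing the data), and -0.103 to 0.0430 when each aorta was left out in turn. Fam3c stayed positive and uncalled in all 24 alternatives, at 0.31 to 0.53 when each aorta was left out, and the log2 ratio of Fam3c to Fam3a then ran from 0.99 to 1.13. That ratio was 1.62 without the correction for gene length, as Fam3c is the longer gene. Genes called were 10 with DESeq2 and 0 otherwise, none of them a member, and the cause was not tested. Relations past the threshold were 1 when centred within groups, by permutations that took no account of the centring, and 0 otherwise. Without a filter on low counts neither Fam3b nor Fam3d was called (adjusted p = 0.576 for each by edgeR's quasi-likelihood test), and their fitted fold changes, which depend on the prior count, are not given. The CPM difference of Fam3b was -0.0187 to 0 when each aorta was left out, and 0 without Ad-sham5. That of Fam3d was 0.0521 to 0.219, the lowest without Ad-FAM3A6.

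Replicate numbers were shared between groups, but do not pair the aortas: r between the deviations of same-numbered aortas ran from -0.33 to 0.45, 3 of 6 pairs exceeded 0.1, and 1 of 6 correlated best with its own number. With the replicate block, Fam3c was 0.53 and 0 genes were called. A covariate for Y-linked expression was not run, since all aortas had Y-linked counts. Counts near 0 limit what can be said of Fam3b and Fam3d.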

Other observations

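Ikbkg, which encodes the NF-kappaB regulator NEMO, lies head to head with Fam3a on chrX:74393290-74453854, with 17 bases between the annotated ends, and was examined after its position and values were seen. Its expression ran from 40.5 to 59.7 CPM with a median of 54.9 CPM. Its r with Fam3a over 13 aortas was -0.55 and rho was -0.57, given as a description with no p because the pair was picked after its values were seen. Without Ad-sham2 and Ad-FAM3A6, r was -0.75. Within the groups r was -0.82 in Ad-sham and -0.24 in Ad-FAM3A. Ikbkg ranked 8861 of 10018 genes by its r with Fam3a, and its annotated span overlaps that of G6pdx, so its counts are uncertain.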
